A study of Mus musculus with 8 samples.

Results

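The 7 subunits of respiratory complex I that are encoded by mitochondrial DNA (mt-Nd1, mt-Nd2, mt-Nd3, mt-Nd4, mt-Nd4l, mt-Nd5 and mt-Nd6) were followed across 8 RNA-seq libraries of 3T3-L1 adipocytes. They were chosen by name, as the complex I genes of the mitochondrial genome, and all 7 had a row in the table of 43629 mouse genes. 3T3-L1 is an established mouse preadipocyte line; it was differentiated with insulin, dexamethasone, isobutylmethylxanthine and rosiglitazone, so all groups share that induction. From day 8 the cells stood for 24 h without treatment, with 2 µM A66, with 0.5 mM palmitate conjugated to BSA, or with palmitate plus A66. A66 is an inhibitor selective for p110α, the catalytic subunit of PI3-kinase that acts below the insulin receptor. There were 2 libraries per group, and the purpose stated with the deposited data was to ask how p110α inhibition alters expression in adipocytes and how it alters the response to a saturated fatty acid. No library received BSA alone, so palmitate and its carrier cannot be told apart.

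Complex I passes electrons from NADH to ubiquinone and pumps protons across the inner mitochondrial membrane. Its membrane arm is built around the mitochondrially encoded ND subunits, and the remaining subunits, including the NADH-oxidising arm, are made from nuclear genes. Mitochondrial DNA is read from both strands into long RNAs that are cut at tRNAs into single messages; of the messages for complex I, mt-Nd6 alone comes from the light-strand transcript and the others from the heavy-strand transcript. mt-Nd6 is also known as the mitochondrial message with little or no poly(A) tail, and these libraries were made after oligo(dT) selection.

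The libraries held 42247091 to 57529803 counts on genes, and the 13 mitochondrial mRNAs took 9.33% to 10.0% of them. The 7 complex I genes took 2.70% to 2.99%. Adipocyte markers were abundant in each library (10 of 10 measured, summed level 14513 to 17172 CPM, counts per 1000000 after TMM scaling), whereas the preadipocyte gene Dlk1, the brown fat gene Ucp1 and the macrophage genes Ptprc and Adgre1 stayed under 3 counts in every library. Of the other brown fat genes listed, Cox7a1 had 36 to 103 counts per library and Cidea 5 to 24. The other 7 of 8 preadipocyte or fibroblast genes were present, the list summing to 3871 to 4669 CPM, mostly from the collagen genes Col3a1 (2952 to 3536) and Col1a1 (576 to 773). The macrophage list summed to 2.75 to 5.94 CPM, nearly all from Cd68, which had 109 to 286 counts and rose with palmitate plus A66 against untreated by 0.88 on the log2 scale (edgeR adjusted p = 0.0010). Summed adipocyte markers were 16904 to 17032 CPM in untreated, 16595 to 17172 in A66, 15064 to 15872 in palmitate and 14513 to 15475 in palmitate plus A66 libraries; the part of these marker levels in the results below was not tested. In such bulk RNA, fewer mitochondria, fewer cells and less RNA per mitochondrion cannot be told apart.

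The genes lie on the GRCm38 mitochondrial chromosome as single exons without introns, mt-Nd1 at chrM:2751-3707, mt-Nd2 at chrM:3914-4951, mt-Nd3 at chrM:9459-9806, mt-Nd4l at chrM:9877-10173, mt-Nd4 at chrM:10167-11544 and mt-Nd5 at chrM:11742-13565 on the plus strand, and mt-Nd6 at chrM:13552-14070 on the minus strand. Members share bases at both of their overlaps. mt-Nd4l and mt-Nd4 overlap by 7 bases on the same strand, in different reading frames. Their junction is printed 5′ to 3′ from the GENCODE M21 transcripts, with the shared bases in capitals, because a fragment across it belongs to both genes.

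mt-Nd4l end, chrM:10144-10173, plus strand: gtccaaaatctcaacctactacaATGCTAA
mt-Nd4 start, chrM:10167-10196, plus strand: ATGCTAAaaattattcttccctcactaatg

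mt-Nd5 and mt-Nd6 overlap by 14 bases at their 3′ ends, on opposite strands. The shared bases are again in capitals, each gene being written on its own strand.

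mt-Nd5 end, chrM:13526-13565, plus strand: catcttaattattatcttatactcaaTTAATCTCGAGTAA
mt-Nd6 end, chrM:13552-13591, minus strand: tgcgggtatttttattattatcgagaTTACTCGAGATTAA

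The strand difference also shows in base composition. mt-Nd6 as read 5′ to 3′ holds 28.1% G and 5.97% C, against 8.00% to 11.6% G in the other members. The library kit keeps strand, but whether the counting used strand is not given in the sources used here; if it did not, heavy-strand RNA lying opposite mt-Nd6 was counted with it and the 2 kinds of RNA cannot be told apart.

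A further kind of sharing concerned nuclear pseudogenes. Each gene was cut into all its windows of 100 bases, the length of a read, and each window was looked for in the annotated nuclear transcripts. For mt-Nd3, 97.6% of the windows had an exact nuclear copy, all in the unprocessed pseudogene Gm28438 (chr1:24612775-24613119). For mt-Nd4l it was 98.5%, in Gm10222 (chr1:24612407-24612700), and for mt-Nd4 60.8%, in Gm28439 (chr1:24611535-24612410). mt-Nd2 shared 3.19% of its windows and mt-Nd1, mt-Nd5 and mt-Nd6 shared 0%. Over 345 compared bases mt-Nd3 and Gm28438 differed at 1, the substitution T3C (position counted from the first base of mt-Nd3, mitochondrial base first), in capitals here.

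mt-Nd3, bases 1 to 50: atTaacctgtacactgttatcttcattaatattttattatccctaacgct
Gm28438, bases 1 to 50: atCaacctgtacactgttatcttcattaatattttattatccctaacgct

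mt-Nd4l and Gm10222 were identical over all 294 compared bases, of which this stretch is an example.

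mt-Nd4l and Gm10222, bases 125 to 174: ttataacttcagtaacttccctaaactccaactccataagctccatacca

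Level per length was lowest for the 2 members whose sequence was nearly all copied, though it did not otherwise follow the copied share. Averaged over the 8 libraries, and written as CPM per kilobase of gene, the order was mt-Nd1 at 7328, mt-Nd2 at 6223, mt-Nd5 at 4719, mt-Nd4 at 4046, mt-Nd6 at 708, mt-Nd4l at 26.8 and mt-Nd3 at 5.59. Neighbours in this order were apart in every library: the lowest mt-Nd1 value per kilobase (7009) lay above the highest of mt-Nd2 (6604), the lowest of mt-Nd2 (5867) above the highest of mt-Nd5 (5114), and the lowest of mt-Nd5 (4459) above the highest of mt-Nd4 (4243). mt-Nd6, with 0% copied, lay below mt-Nd4, with 60.8%. The 2 lowest members had 81 to 117 counts (mt-Nd3) and 256 to 524 counts (mt-Nd4l) per library, where mt-Nd5 had 381740 to 512287.

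Other nearly fully copied mitochondrial mRNAs were also low, mt-Atp6 less so. The cytochrome oxidase genes mt-Co2 and mt-Co3, with 99.5% and 99.9% of windows copied, stood at 1.84 and 2.47 CPM per kilobase, and mt-Atp6, with 99.5%, at 666, while mt-Co1, with 30.8%, had 35331, the highest of the 13. The pseudogene Gm28438 itself carried 407 to 582 counts per library, more than mt-Nd3, whereas Gm10222 (57 to 143) carried fewer than mt-Nd4l. How the counting treated fragments that fit both places was not tested, so the levels of mt-Nd3 and mt-Nd4l are uncertain and are not read as the abundance of these messages.

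**Figure D1:**
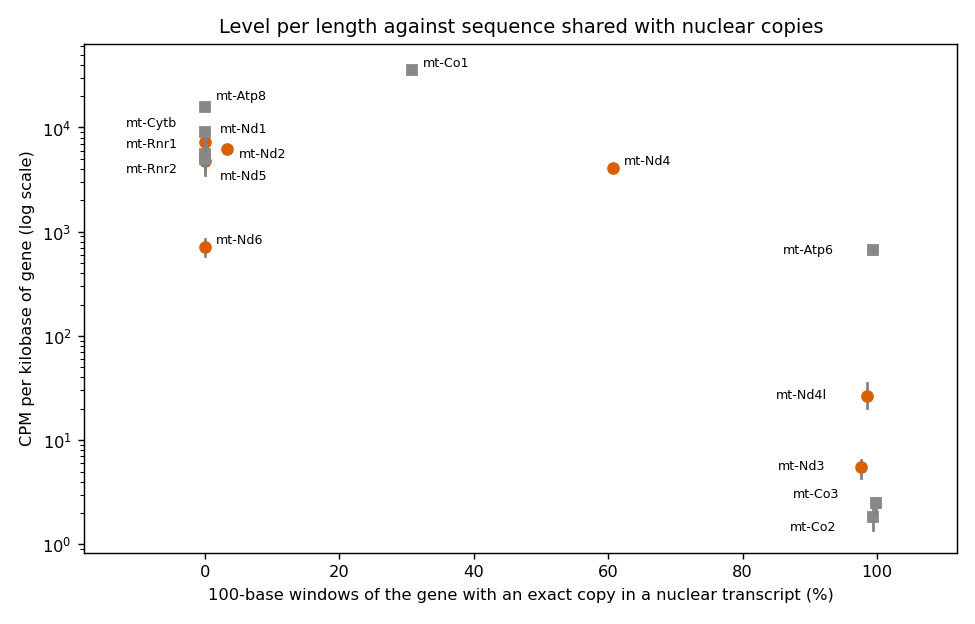
Level of each mitochondrial mRNA and rRNA (y axis, TMM-scaled CPM per kilobase, log scale; point, mean of 8 libraries; line, lowest to highest library) against the percent of its 100-base windows with an exact copy in an annotated nuclear transcript (x axis). Complex I genes are circles and other genes squares; mt-Nd3 and mt-Nd4l lie low at the right, mt-Nd4 at 60.8% lies near mt-Nd5, and mt-Nd6 is low with 0% copied.

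The place of mt-Nd4 depended on the length used. With its CPM divided by only the 502 read positions that lie in no other gene and have no nuclear copy, mt-Nd4 stood at 11106 per 1000 positions, above mt-Nd1 at 8192, mt-Nd2 at 7122, mt-Nd5 at 5031 and mt-Nd6 at 905. That division assumes that no fragment from the copied positions was counted, which was not tested. mt-Nd4l had 0 such positions and mt-Nd3 had 6, too few for a level.

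mt-Nd6 was the member called higher with A66 alone. Its level was 366 and 350 CPM in the untreated libraries, 445 and 420 with A66, 313 and 330 with palmitate, while the palmitate plus A66 pair had 306 and 410. Both A66 libraries lay above all the others, both palmitate libraries lay below both untreated ones, and the 2 libraries of palmitate plus A66 were far apart, 1 the lowest of the 8 and 1 next below the A66 pair. Group means were 358 ± 11.5 CPM untreated, 432 ± 18.1 with A66, 321 ± 12.3 with palmitate and 358 ± 73.2 with both (SD, n = 2 each).

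mt-Nd5, which forms a distal proton-pumping part of the membrane arm and ends over mt-Nd6, stood at 9329 and 8726 CPM untreated, 8329 and 8134 under A66, 8854 and 8600 under palmitate, and 8477 and 8417 under both agents. Both A66 libraries were the lowest of the 8, and those with both agents lay next above them. Libraries with A66 and those without it, palmitate included, therefore did not overlap. How many of all genes separate in this way was not counted, for mt-Nd5 or any other member. mt-Nd6 counts per 100 mt-Nd5 counts were 3.93 and 4.01 untreated, 5.34 and 5.16 under A66, 3.53 and 3.84 under palmitate, and 3.61 and 4.87 under both agents, so A66 alone held the 2 highest ratios. With lengths less the 14 shared bases, mt-Nd5 moved from 4719 to 4756 and mt-Nd6 from 708 to 728 CPM per kilobase.

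mt-Nd1, a membrane subunit next to the ubiquinone site, stood at 7363 and 7043 CPM untreated, 6708 and 6786 under A66, 6889 and 7127 under palmitate, and 7012 and 7173 under both agents. Here too both A66 libraries were the lowest. mt-Nd2, one of the antiporter-like membrane subunits, had 6855 and 6578 CPM untreated, 6449 and 6332 under A66, 6255 and 6600 under palmitate, and 6090 and 6514 under both agents. Its untreated and A66 libraries did not overlap, but the A66 values fell between the 2 values of palmitate and between the 2 of palmitate plus A66.

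mt-Nd4, another antiporter-like subunit, had 5847 and 5471 CPM untreated, 5252 and 5378 under A66, 5427 and 5817 under palmitate, and 5692 and 5717 under both agents. Both A66 libraries were again the lowest. mt-Nd4l, a small membrane subunit, had 6.03 and 7.32 CPM untreated, 9.42 and 8.25 under A66, 7.21 and 7.29 under palmitate, and 7.69 and 10.5 under both agents. Every A66-containing library was above every other one, again without a count of how many of all genes separate so.

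mt-Nd3, a small subunit whose loop lies near the junction of the membrane and matrix arms, had 2.05 and 1.5 CPM untreated, 2.26 and 2.07 under A66, 1.73 and 1.77 under palmitate, and 2.08 and 2.11 under both agents. The 2 untreated libraries were further apart than any of the group means. Across the 8 libraries the highest value exceeded the lowest by 9.76% for mt-Nd1, 12.6% for mt-Nd2, 11.3% for mt-Nd4 and 14.7% for mt-Nd5, and by 45.3% for mt-Nd6, 50.8% for mt-Nd3 and 74.5% for mt-Nd4l.

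**Figure D2:**
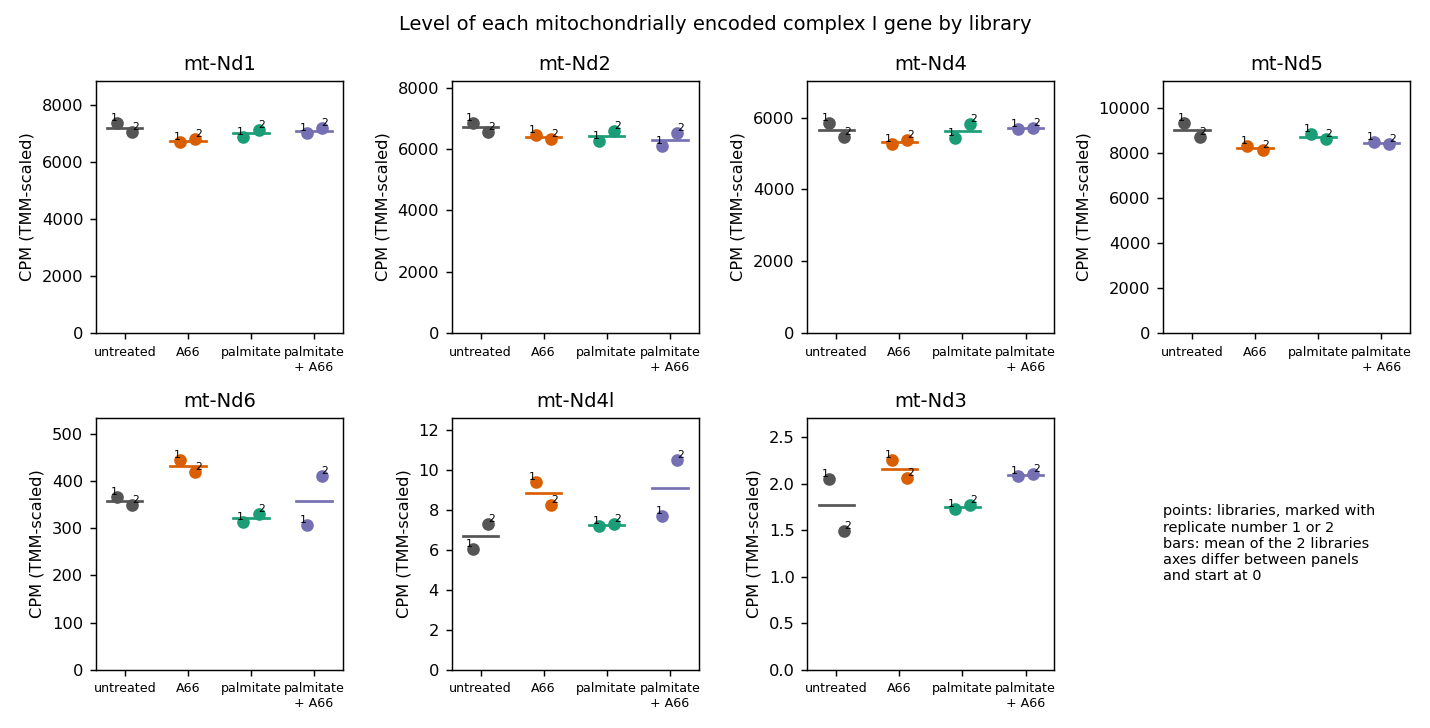
TMM-scaled CPM (y axis, from 0, different in each panel) of each complex I gene in the 4 groups (x axis); points are libraries, numbered by replicate, and bars are means of 2. mt-Nd6 is highest in the A66 libraries (445 and 420 CPM) and its palmitate plus A66 libraries are far apart (306 and 410 CPM), whereas mt-Nd1, mt-Nd2, mt-Nd4 and mt-Nd5 vary little.

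For A66 against untreated adipocytes, 1 of the 7 members passed the test (edgeR quasi-likelihood test, Benjamini-Hochberg adjusted p under 0.05), where 1.84% of the 14158 genes tested did. An unadjusted edgeR p under 0.05 was reached by 5 members, some higher and some lower, and by 1813 of all genes tested. mt-Nd6 rose by 0.27 on the log2 scale (SE 0.041, 95% interval 0.19 to 0.36, edgeR adjusted p = 5.1e-04). That call was kept in 7 of 8 other settings. It was also kept whichever of the 4 libraries was left out, but each such fit has 1 library in an arm, takes its spread from the pair in the other arm and is weak support. It was lost when all 8 libraries were fitted together (log2 difference 0.27, adjusted p = 0.0877), a fit whose estimate of the spread includes the palmitate plus A66 pair.

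The heavy-strand members with ample counts moved the other way without passing. mt-Nd5 had a log2 difference of -0.13 (95% interval -0.20 to -0.06, edgeR adjusted p = 0.0639), mt-Nd1 -0.09 (adjusted p = 0.221), mt-Nd4 -0.09 (adjusted p = 0.288) and mt-Nd2 -0.07 (adjusted p = 0.407). Their 95% intervals together ran from -0.20 to 0.0017, which is at most a fall of that size on the log2 scale. The call for mt-Nd5 was near its threshold: it passed in 4 of 8 other settings. Its difference ran from -0.17 to -0.08 with each library left out. A fit without 1 untreated library rests on the other alone in that arm, so only sizes are given. Without untreated replicate 2 the log2 differences were -0.17 (mt-Nd5), -0.12 (mt-Nd1), -0.13 (mt-Nd4) and -0.10 (mt-Nd2). Without untreated replicate 1 they were -0.08, -0.06, -0.04 and -0.04 in the same order. The same fits put mt-Nd4l at +0.56 and +0.28. With all 4 libraries kept, mt-Nd1 passed with no filter on low counts (edgeR adjusted p = 0.0322) and with the length correction (edgeR adjusted p = 0.0368). mt-Nd4l passed with no filter (edgeR adjusted p = 0.0251). mt-Nd4l was at +0.40 (95% interval 0.15 to 0.65, edgeR adjusted p = 0.104) and mt-Nd3 at +0.30 (-0.17 to 0.78, adjusted p = 0.645), the latter being +0.09 without untreated replicate 2 and +0.53 without untreated replicate 1. The median over the 7 members was -0.07 on the log2 scale and that over all genes tested was -0.0011.

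For palmitate against untreated, 0 of 7 members passed by edgeR, where 1.17% of 14587 genes did. An unadjusted edgeR p under 0.05 was reached by 0 members and by 1753 of all genes tested. DESeq2 called 0 of the 5 to which it gave an adjusted p (not mt-Nd3 or mt-Nd4l). The median log2 difference of the members was -0.04, and over all genes it was 0.00053. mt-Nd6 was lower by 0.16 on the log2 scale, with a 95% interval from -0.32 to 0.0022 (edgeR adjusted p = 0.425). Of the abundant heavy-strand members mt-Nd2 had the most negative value, -0.06 (95% interval -0.16 to 0.03, edgeR adjusted p = 0.638).

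Added to palmitate, A66 changed 0 of 7 members by edgeR and by DESeq2, where 2.81% of all genes were called by edgeR. At an unadjusted edgeR p under 0.05 there was 1 member, beside 2101 of the 14587 genes tested. The log2 difference of mt-Nd6 was +0.16 (95% interval -0.0022 to 0.32, edgeR adjusted p = 0.355), and it turned to -0.07 without palmitate plus A66 replicate 2 and to +0.35 without replicate 1. In these and the later fits without one of that pair, the lone library is assumed to vary like those of the other groups, so these values show how far apart the pair is. mt-Nd4l was at +0.33 (95% interval 0.05 to 0.61, edgeR adjusted p = 0.232), and at +0.08 without palmitate plus A66 replicate 2 and +0.54 without replicate 1. mt-Nd1, mt-Nd2, mt-Nd4 and mt-Nd5 lay between -0.05 and +0.02.

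With palmitate plus A66 against A66 alone, 0 of 7 passed by edgeR and 0 by DESeq2, where 2.73% of all genes passed by edgeR. An unadjusted edgeR p under 0.05 was reached by 2 members and by 2123 of the 14587 genes tested. mt-Nd6 had a log2 difference of -0.27 (95% interval -0.43 to -0.11, edgeR adjusted p = 0.0589), near the threshold; it passed in 4 of 8 other settings. Without palmitate plus A66 replicate 2 it was -0.50, and without replicate 1 it was -0.08. mt-Nd4 was at +0.10 (95% interval 0.0070 to 0.20, edgeR adjusted p = 0.294).

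Against untreated cells, palmitate plus A66 changed 1 of 7 members, where 7.5% of all genes were called. The member was mt-Nd4l, at +0.44 on the log2 scale (95% interval 0.16 to 0.72, edgeR adjusted p = 0.0498), which is one of the genes with few counts and a nearly full nuclear copy. Its adjusted p ran from 0.0048 to 0.0834 over the other settings, 5 of 8 keeping the call, and its log2 difference ran from 0.20 (without palmitate plus A66 replicate 2) to 0.65 with each library left out. It passed in 2 of these 4 fits, and not without untreated replicate 1 or palmitate plus A66 replicate 2. mt-Nd6 averaged a log2 difference of 0.00 (95% interval -0.16 to 0.16), the mean of 1 library above and 1 below the untreated pair: it was -0.23 without replicate 2 and 0.20 without replicate 1. mt-Nd5 was at -0.10 (95% interval -0.19 to -0.0040, edgeR adjusted p = 0.217), and from -0.14 to -0.05 with each library left out.

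The A66 effect with palmitate was compared with that without it in the interaction term. 0 of 7 members passed by edgeR and 0 of the 5 with an adjusted p by DESeq2 (not mt-Nd3 or mt-Nd4l), where 0.00686% of all genes passed by edgeR. At an unadjusted edgeR p under 0.05 there were 0 members, beside 1155 of the 14587 genes tested. For mt-Nd6 the difference of the 2 effects was -0.11 on the log2 scale (95% interval -0.34 to 0.11, edgeR adjusted p = 0.859), and for mt-Nd1 it was +0.11 (-0.01 to 0.24, adjusted p = 0.688). The effect of A66 on mt-Nd6 in the absence of palmitate was therefore not shown to differ from that in its presence. The comparisons share libraries, so they are not independent of each other.

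**Figure D3:**
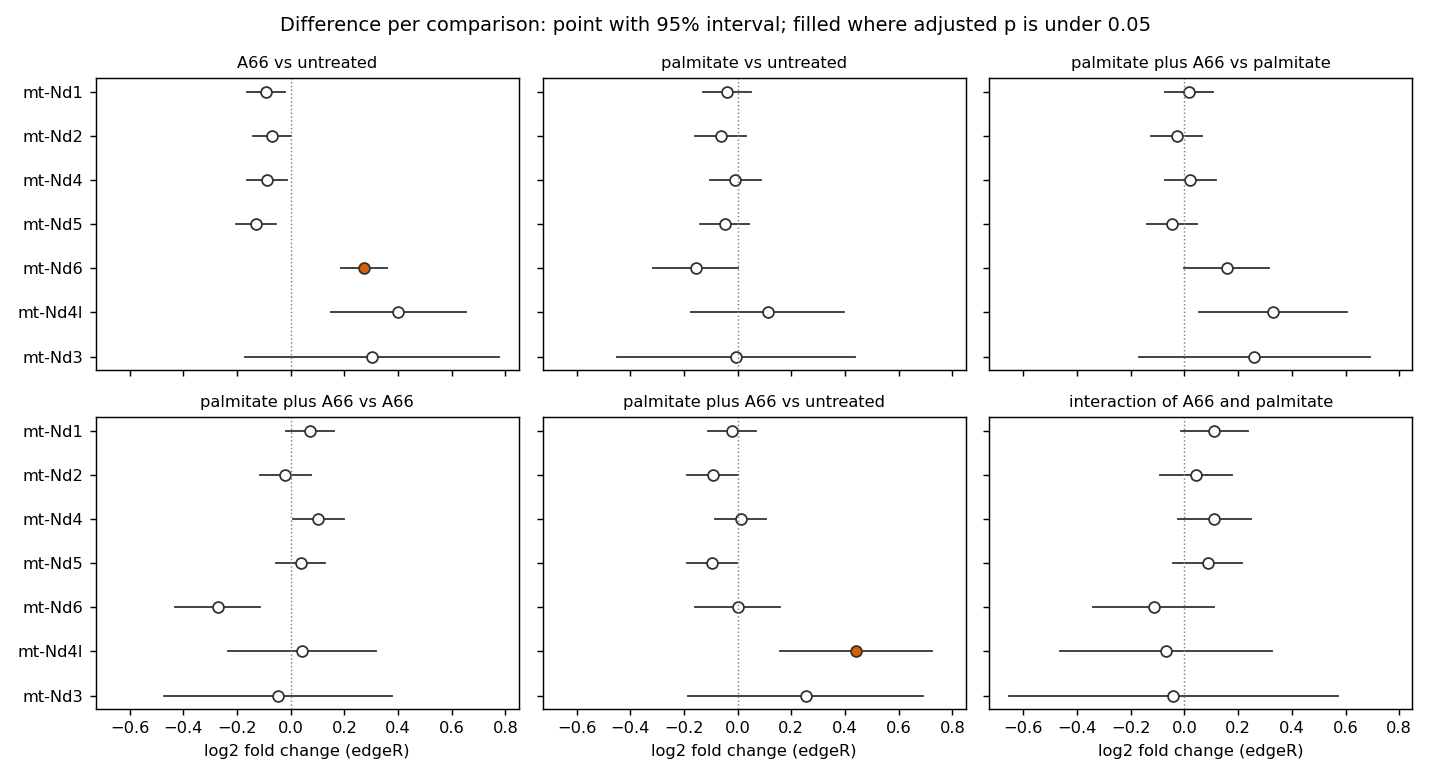
Log2 fold change by edgeR (x axis; point with 95% interval) of the 7 complex I genes in the 6 comparisons, filled where the adjusted p is under 0.05. mt-Nd6 is filled for A66 against untreated (0.27) and mt-Nd4l for palmitate plus A66 against untreated (0.44), and the intervals of mt-Nd3 and mt-Nd4l are the widest.

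Within the mitochondrial mRNAs, the complex I genes took a smaller share of counts wherever A66 was given. The 7 genes made up 29.9% and 30.1% of the counts on the 13 mRNAs in untreated libraries, 28.8% and 29.0% under A66, 29.3% and 29.6% under palmitate, and 27.7% and 27.8% under both agents. The groups did not overlap, and the order was untreated, palmitate, A66, then both. How often other sets of genes separate so was not counted. Of the counts on the 13 mRNAs, mt-Nd5 took 9.36% ± 0.029 untreated and 8.77% ± 0.070 with A66, and mt-Nd6 0.371% ± 0.0044 and 0.460% ± 0.015 (SD, n = 2 each). These shares were described without a test, and they also move with mt-Co1, the largest message, at 52040 to 55069 CPM in untreated, A66 and palmitate libraries and 57875 and 58649 with both. As a share of all counts the order was another one, with A66 alone lowest. There the 7 genes took 2.99% and 2.85% untreated, and 2.79% and 2.84% under palmitate. They took 2.72% and 2.70% under A66, and 2.75% and 2.77% under both agents.

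Of the 6 other mitochondrial mRNAs (subunits of complexes III to V), 0 passed by edgeR in any of the 6 comparisons. With A66 the smallest p belonged to mt-Co2 (-0.47 on the log2 scale, at 1.11 to 1.88 CPM in these libraries) and mt-Atp8 (-0.07), and with palmitate to mt-Co2 (-0.54) and mt-Atp6 (-0.05). The 2 mitochondrial rRNAs, which carry no long poly(A) tail, both rose with A66. mt-Rnr1 was at 3776 and 3881 CPM untreated, 5405 and 6683 under A66, 4255 and 5167 under palmitate, and 6077 and 7508 under both agents. Its log2 difference for A66 against untreated was 0.66 (SE 0.057, edgeR adjusted p = 5.9e-07), and that of mt-Rnr2 was 0.58 (SE 0.070, adjusted p = 4.1e-05). The call of mt-Rnr2 was lost with DESeq2 (adjusted p = 0.121), and over the 13 fits made, leave-outs included, its log2 difference ran from 0.38 to 0.75; mt-Rnr1 passed in all 13. Both also rose when A66 was added to palmitate (mt-Rnr1 by 0.53, adjusted p = 0.0013; mt-Rnr2 by 0.47, adjusted p = 0.0082; called in 12 and 10 of 13 fits) and with both agents against untreated (by 0.83 and 0.77), comparisons in which mt-Nd6 was not called.

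The comparisons with palmitate were fitted on all 8 libraries. In that fit mt-Nd6 was not called for A66 against untreated either (edgeR adjusted p = 0.0877). In palmitate libraries both rRNAs lay above the untreated ones and mt-Nd6 below, and with both agents the rRNAs were above untreated in both libraries and mt-Nd6 in 1. Within each of these pairs the library with more mt-Nd6 also had more of both rRNAs, whereas within the A66 pair it had less. Over the 8 libraries mt-Nd6 had r = 0.40 with mt-Rnr1 and r = 0.35 with mt-Rnr2 (log2 CPM, as a description). In a list of 10 nuclear RNAs without a long poly(A) tail, written after the values were seen and so no independent evidence, 4 had counts enough to be tested with A66. Rn7sk rose by 0.55 on the log2 scale (edgeR adjusted p = 0.0109) and Rpph1 by 1.48 (adjusted p = 0.0154), and the other 2 did not pass; 1.84% of all genes were called. Summed, the 10 stood at 6.85 to 7.84 CPM untreated, 11.6 in both A66 libraries, 7.83 to 9.94 with palmitate and 10.7 to 11.8 with both. The part of poly(A) selection in the rise of mt-Nd6 was not tested.

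**Figure D4:**
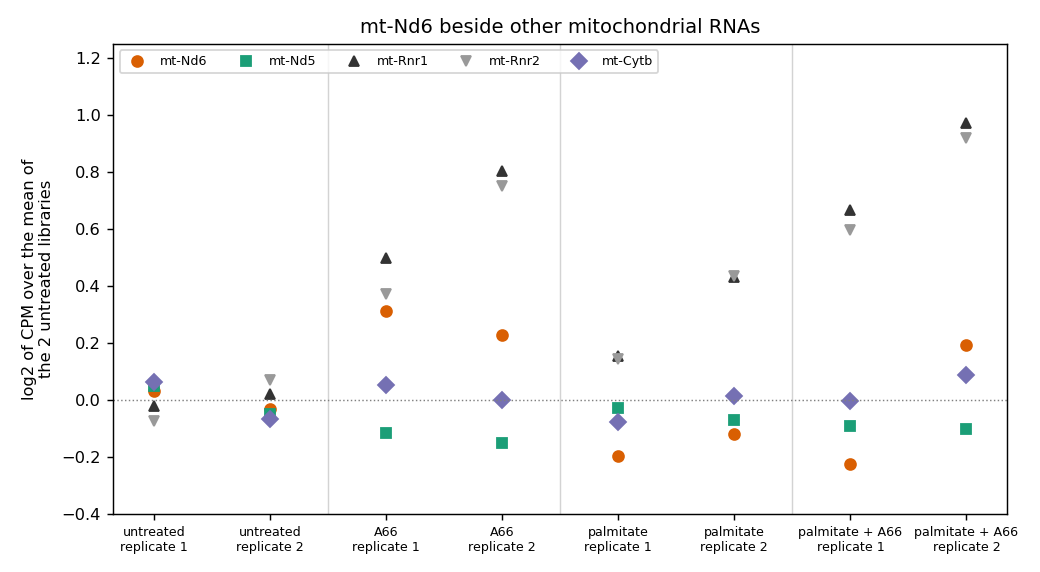
Log2 of the CPM over the mean of the 2 untreated libraries (y axis) for mt-Nd6, mt-Nd5, the 2 mitochondrial rRNAs and mt-Cytb in each library (x axis). Both rRNAs lie above 0 in all 6 treated libraries, whereas mt-Nd6 is above 0 in both A66 libraries and in 1 library with both agents, and below 0 in the other 3.

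The nuclear partners of the 7 genes were examined as lists. Of 7 nuclear core subunits of complex I, 0 passed with A66 (Ndufv2 at -0.11 and Ndufs7 at +0.11 had the smallest p) or with palmitate (Ndufs8 at +0.11 and Ndufs7 at +0.07). Ndufv2, a subunit of the NADH-oxidising arm, fell by 0.24 on the log2 scale when A66 was added to palmitate (edgeR adjusted p = 0.0032; 1 of 7, with 2.81% of all genes called) and by 0.21 with both agents against untreated (adjusted p = 0.0040; 1 of 7, 7.5%). Of 29 nuclear accessory subunits, 1, Ndufb9, rose with A66 by 0.19 (edgeR adjusted p = 0.0176, with 1.84% of all genes called; Ndufa2, next by p, was at +0.21 with adjusted p = 0.0747), 0 passed with palmitate (Ndufa12 at +0.17 and Ndufa6 at +0.14 had the smallest p), and 4 fell when A66 was added to palmitate (Ndufa12, Ndufb7, Ndufb10 and Ndufv3, by 0.17 to 0.29), where 2.81% of all genes were called. There were 4 lower calls for palmitate plus A66 against A66 (Ndufb3, Ndufb7, Ndufb8 and Ndufb10; 2.73% of all genes) and 4 against untreated (Ndufb3, Ndufb7, Ndufb10 and Ndufv3; 7.5%). In the same 3 comparisons 3, 6 and 5 of the 10 adipocyte markers were called lower, Retn, Slc2a4 and Cidec in each; their part in the subunits' fall was not tested. The median of the 29 was 0.06 with A66, 0.01 with palmitate and -0.12 for A66 added to palmitate, beside all-gene medians of -0.0011, 0.00053 and -0.00079. In the last comparison mt-Nd1, mt-Nd2, mt-Nd4 and mt-Nd5 lay between -0.05 and +0.02 and mt-Nd6 at +0.16; no test against the nuclear subunits was made.

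Genes that make and keep the members' RNA were counted in the same way. Of 16 genes for mitochondrial DNA transcription and copying, 0 passed in any of the 6 comparisons; Polrmt, the mitochondrial RNA polymerase, was at -0.10 with A66 (edgeR adjusted p = 0.585), Mterf2 at -0.16 with A66 and with palmitate, and the rRNA methyltransferase Tfb1m at +0.16 with palmitate. Of 17 tested genes for mitochondrial RNA processing, stability and decay, 0 passed with A66 (Fastk at -0.11 and Tbrg4 at -0.12 had the smallest p) or palmitate (Rexo2 at +0.14 and Fastkd1 at -0.14). Hsd17b10, a subunit of the mitochondrial RNase P, fell by 0.21 when A66 was added to palmitate (edgeR adjusted p = 0.0091; 1 of 17, with 2.81% of all genes called). It was lower by 0.22 with palmitate plus A66 against A66 (adjusted p = 0.0064; 1 of 17, 2.73%) and by 0.24 against untreated (adjusted p = 0.0016), where Tbrg4 also fell by 0.19 (adjusted p = 0.0317; 2 of 17, 7.5%). Of 18 tested complex I assembly factors, 0 passed with A66 (Ndufaf4 at -0.19 and Dmac1 at +0.17) or palmitate (Ndufaf4 at -0.21 and Ndufaf5 at +0.18). Acad9 fell by 0.19 with both agents against untreated (edgeR adjusted p = 0.0126; 1 of 18, 7.5%). Among the 22 mitochondrial tRNA genes, 9 had counts enough to be tested and 0 of these passed with A66 or with palmitate.

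As a description over the 8 libraries, which share groups and scaling, mt-Nd1 was most like mt-Nd4 (Pearson r = 0.92 of log2 CPM) and next mt-Nd5 (r = 0.70). mt-Nd6 had negative values with mt-Nd1 (r = -0.32), mt-Nd4 (r = -0.43) and mt-Nd5 (r = -0.45) and positive ones with mt-Nd2 (r = 0.29), mt-Nd3 (r = 0.55) and mt-Nd4l (r = 0.61). mt-Nd5 and mt-Nd4l had the most negative pair value, r = -0.77. Among 8951 other genes of at least 10 CPM, the 5 most like the mean of the members were Tmem68 and Gm13736 (both r = 0.97), Casd1 and Tmbim1 (both r = 0.94) and Acacb (r = 0.93), with mt-Cytb at 0.87. That mean weighs each member equally on the log2 scale, including mt-Nd3 and mt-Nd4l, whose levels are uncertain and varied most. The 5 most like mt-Nd6 were Hsd17b11, Ddo, Slc7a6, Zfp251 and Mrpl51, from r = 0.97 to 0.95, and mt-Cytb stood at 0.60.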

How the data were processed

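Poly(A)-selected libraries of 2 replicates per group were sequenced by the authors as paired reads of 100 bases. Per the labels and the study's methods, they were aligned with TopHat2 2.0.11 to GRCm38 and counted with HTSeq; the strand setting, the handling of multiply placed reads and the annotation release are not given in the sources used here. The deposited values are raw counts per gene. The labels give 2 µM A66 and untreated controls, which were followed here; the study's methods state a lower dose and a DMSO vehicle. The study calls its replicates biological repeats for A66 and its control; for the palmitate groups nothing says whether the replicates are separate cultures, and p-values there measure only the spread between the libraries.

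Counts were tested with edgeR 4.0.16 (R 4.3.3): TMM scaling (factors 0.982 to 1.01), filterByExpr with a minimum count of 10, the quasi-likelihood test and Benjamini-Hochberg adjustment over all genes tested, called at 0.05. A66 against untreated was fitted on its 4 libraries and the other comparisons on all 8. The test was tried on simulated counts first. Alternatives were RLE scaling, library size alone, DESeq2 1.42.0, other filters, a replicate block, a length correction (loess span 0.4), other sets of libraries and leaving out each library. Members and lists (151 genes in 14 lists, 2 without a match by symbol) were chosen with earlier results of these data known. The named genes were the members, the 2 smallest p per list with A66 and with palmitate, and the 5 genes most alike; tRNAs are given as counts only. List genes called in the other comparisons, and the RNAs without a poly(A) tail, were named after their values were seen. Sequences and positions came from GENCODE M21 (GRCm38) transcripts, and nuclear copies were sought only in annotated transcripts. CPM levels are TMM-scaled, and intervals are at 95%.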

Additional observations from a re-analysis of the deposited data

How the results depend on the processing

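Over 520 refits of a member's log2 difference (5 more, all with DESeq2 for mt-Nd3 or mt-Nd4l, had no adjusted p), 458 kept both direction and side of the threshold, 6 lost and 20 gained a call in the same direction, and 36 changed sign, 1 of them into a call (mt-Nd6 for both agents against untreated, without palmitate plus A66 replicate 1). Every sign change belonged to a value that was not called in the reported fit. For the 7 members the number called with A66 against untreated was 2 with library size only, 4 with no low-count filter, 3 with the length correction and 0 with all 8 libraries, and it ran from 1 to 5 with each library left out, 5 coming without untreated replicate 2. For palmitate against untreated it was 1 with no filter. When A66 was added to palmitate it was 1 with no filter and 0 to 1 with a library left out; for palmitate plus A66 against A66 it was 1 with library size only, no filter and only 4 libraries, and 0 to 1 with a library left out. For palmitate plus A66 against untreated it was 0 with library size only, DESeq2 and only 4 libraries, and 0 to 2 with a library left out. The causes were not tested.

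No filter gave 459, 396, 652, 664 and 91 calls over all genes for A66, palmitate, A66 added to palmitate, palmitate added to A66 and the interaction, against 261, 171, 410, 398 and 1; only 4 libraries gave 689 for palmitate added to A66, and the interaction had 2 with library size only and 8 with DESeq2. Leaving out a library gave 98 to 635 (A66; 635 without untreated replicate 2, 98 without A66 replicate 2), 71 to 245 (palmitate), 147 to 426, 107 to 346, 437 to 927 (both against untreated, 1094 reported) and 0 to 10 (interaction).

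With the replicate number as a block, 2 members were called with A66 against untreated (mt-Nd5 and mt-Nd6), 1 for palmitate plus A66 against A66, and 3 genes in the interaction. The labels do not say that numbers pair samples, and deviations of same-numbered libraries correlated from -0.105 to 0.127 over 11144 genes. Because the value for A66 and palmitate plus A66 was -0.105, the crossed pairing was added after seeing the data: fitted on those 4 libraries, it gave 2 members and 1371 genes, against 1 and 689 on the same 4 libraries with no block. Where a left-out library leaves an arm with 1, the lone library is assumed to vary like the other groups.

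With all libraries of a comparison kept, these uncalled values changed sign. mt-Nd3 went to 0.0028 for palmitate (no filter) and to 0.022 in the interaction (length correction); mt-Nd1 to -0.0016 for A66 added to palmitate (library size only); mt-Nd2 to 0.0061 for palmitate added to A66 (length correction); mt-Nd4 to -0.017 (library size only) and -0.0061 (length correction) for both agents against untreated. mt-Nd6 for both agents against untreated, reported at -6.1e-05, was 0.0010 (RLE), 7.2e-04 (DESeq2), 0.0046 (no filter), 0.0038 (10 counts in every library) and 4.4e-04 (only 4 libraries).

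With each library left out, the ranges that crossed 0 were, for palmitate, -0.23 to 0.22 (mt-Nd3), -0.058 to 0.040 (mt-Nd4) and -0.015 to 0.27 (mt-Nd4l). For A66 added to palmitate they were -0.0072 to 0.043 (mt-Nd1), -0.078 to 0.020 (mt-Nd2), -0.028 to 0.073 (mt-Nd4) and -0.069 to 0.35 (mt-Nd6). For palmitate added to A66 they were -0.070 to 0.028 (mt-Nd2), -0.11 to 0.019 (mt-Nd3) and -0.20 to 0.25 (mt-Nd4l). For both against untreated they were -0.054 to 0.0096 (mt-Nd1), -0.036 to 0.060 (mt-Nd4) and -0.23 to 0.20 (mt-Nd6), and in the interaction -0.0058 to 0.089 (mt-Nd2), -0.27 to 0.18 (mt-Nd3), -0.31 to 0.14 (mt-Nd4l) and -0.34 to 0.078 (mt-Nd6). The counts of mt-Nd3 (81 to 117) and mt-Nd4l (256 to 524) were the lowest of the members and their intervals the widest.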

Other observations

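Gm29216, a pseudogene on chromosome 1 with exact copies of 26.3% of the 100-base windows of mt-Co1, carried 51 to 384 counts in 7 libraries and 4782 in palmitate replicate 2. The gene mt-Co1 itself stood at 53976 CPM in that library, within the range of the others, and Gm28438 and Gm10222, the copies of mt-Nd3 and mt-Nd4l, carried 582 and 143 counts there.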
